A study of Drosophila melanogaster with 6 samples.

Results

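The UDP-glycosyltransferases (Ugt genes) were described across 6 RNA-seq libraries of whole Drosophila melanogaster larvae. Members were all genes of the Release 6 RefSeq annotation whose symbol begins with Ugt and a digit. The annotation holds 35 such genes, and 33 of them had transcripts in the deposited tables, out of 16196 genes in all. Ugt35E1 and Ugt35E2 were not analysed here. A gene was counted as measured when its mean over the 6 libraries was at least 1 CPM (counts scaled to a common library size and corrected for library composition by TMM), which left 21 Ugt genes among 11602 genes. The other 12 members fell under that level.

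The 5 transgenic strains were compared with a control strain. Larvae of the strains C1, C2, C3, C4 and C5 (labelled Tublin Gal4; UAS-C1 and likewise for UAS-C2, UAS-C3, UAS-C4 and UAS-C5) each drove 1 gene taken from a newt, Notophthalmus viridescens. Every transgene was carried as a single copy inserted by phiC31 integrase at an attP site. Control larvae were labelled Tublin Gal4/S-T, where S-T is not explained and Tublin stands for tubulin, and carried the same Gal4 driver without a newt gene. The tubulin promoter drives Gal4 in nearly all tissues, so no tissue was targeted. All larvae were at the 3rd instar, on day 4 after egg laying. The labels give neither the sex nor the number of larvae in a library. Each genotype had 1 library, so differences between 2 libraries had no replicate check. In whole larvae, fewer cells of a type and less RNA per cell cannot be told apart.

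UDP-glycosyltransferases are enzymes of the endoplasmic reticulum membrane that join a sugar, in insects usually glucose, from a UDP-sugar to small lipophilic molecules. The conjugates are more soluble and easier to excrete or store. In flies the family is known for handling plant toxins, insecticides, pigments, odorants and hormones, mainly in the gut, fat body, Malpighian tubules and sense organs. UDP-glycosyltransferases belong to the second phase of detoxification with glutathione S-transferases and sulfotransferases, after oxidation by cytochrome P450 enzymes.

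The libraries held between 75073814 (C2) and 86898546 (C1) estimated counts on annotated genes. Libraries C4 and control stood apart from the others in RNA of the male germline. The 11 male germline markers summed to 19.7 CPM in C1, 19.7 CPM in C2, 12.9 CPM in C3, 3279 CPM in C4 and 14.8 CPM in C5 larvae, against 1548 CPM in control larvae. The sperm tail gene dj was at 0 in C1, C2 and C3, as were S-Lap4 and Mst84Da in C3. All 11 markers were lower than control in C1, C2, C3 and C5, and 9 were higher in C4. Summed RNA of markers of other tissues differed as well. Midgut markers were summed over 9 genes, 7 of which counted as measured. The sum was 2006 CPM in C1, 1280 CPM in C2, 911.7 CPM in C3, 526.3 CPM in C4 and 1549 CPM in C5 larvae, against 617.1 CPM in control larvae. Fat body markers summed to between 52330 CPM in C4 and 150400 CPM in C5 larvae, against 94150 CPM in control larvae. Malpighian tubule markers summed to between 373.2 CPM in C4 and 744.1 CPM in C2 larvae, against 560.1 CPM in control larvae. C2 and C3 lay at opposite ends for 4 further lists. The 6 salivary gland glue genes summed to 45840 CPM in C2 and 800.2 CPM in C3 larvae, against 18690 CPM in control larvae. The 5 larval cuticle genes summed to 34860 CPM in C2 and 393.7 CPM in C3 larvae, against 7285 CPM in control larvae. The 6 muscle genes summed to 10740 CPM in C2 and 889.3 CPM in C3 larvae, against 2712 CPM in control larvae. The 5 haemocyte genes summed to 350.7 CPM in C2 and 40.98 CPM in C3 larvae, against 102.4 CPM in control larvae. Of these 5 genes, 3 were higher in C2 and 3 were lower in C3, and NimC1 lay below control in C2 (11.6 against 17.6 CPM). All glue, cuticle and muscle genes were higher in C2, and all glue and cuticle genes and 5 of 6 muscle genes were lower in C3. Whether these sums follow the amount of a tissue or the activity of the marker genes was not tested. Their part in the Ugt levels of C2 and C3 was not tested either.

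A few genes made most of the family's RNA. Reads scaled for transcript length and for depth (RPKM), which allow levels of genes of unequal length to be compared, summed over the family to 513.3 RPKM in C1, 198.3 RPKM in C2, 334.4 RPKM in C3, 250.5 RPKM in C4 and 443.6 RPKM in C5 larvae, against 393.4 RPKM in control larvae. The 3 highest members made between 66.7% (C4) and 86.3% (C1) of that sum in transgenic larvae, against 79.0% in control larvae. Only 4 members averaged 10 RPKM or more, 12 averaged between 1 and 10, 10 between 0.1 and 1, and 7 under 0.1. Ugt36D1 (chromosome 2L, 18823548 to 18826716, plus strand) averaged 130.4 ± 35.6 RPKM and Ugt301D1 (2L, 18509560 to 18513512, plus strand) 105.8 ± 65.3 RPKM (SD over the 6 genotypes, n = 6). Ugt37A3 (3R, 12741958 to 12743680, minus strand) averaged 48.0 ± 35.0 RPKM and Ugt316A1 (3L, 19059400 to 19062816, minus strand) 19.6 ± 3.85 RPKM (SD over the 6 genotypes, n = 6). Ugt36D1 was the highest member in every library except C1, where Ugt301D1 was. By these SDs, which span genotypes and not replicates, the means of Ugt36D1 and Ugt301D1 lay within their spread of each other.

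**Figure D1:**
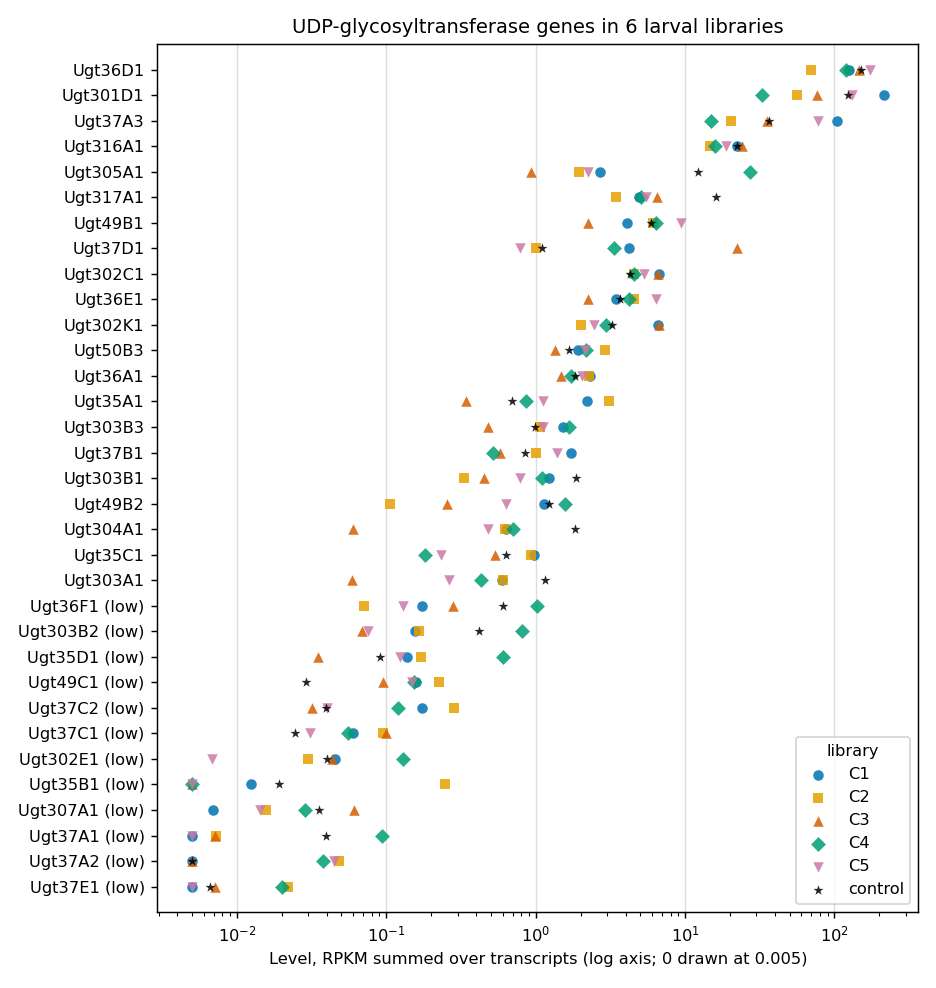
Level per length of the 33 Ugt genes (rows, ordered by mean) in each library, in RPKM on a log axis; values of 0 are drawn at 0.005, and "(low)" marks members averaging under 1 CPM. Ugt36D1 and Ugt301D1 lie at the top, and 17 members average under 1 RPKM.

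The family lies in tight groups on the chromosomes. Of the 35 annotated members, 11 lie on chromosome arm 2L, 5 on 2R, 2 on 3L and 17 on 3R. When neighbours no more than 10000 bases apart were joined, 22 members fell into 6 groups and 13 stood alone. The largest group held 9 genes within 26885 bases of 3R (11151026 to 11177910). Among the 16 neighbouring pairs, 12 were on the same strand, 2 were head to head and 2 were tail to tail. Positions are those of the Release 6 assembly, named dm6 in the submitters' processing notes.

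Between a transgenic library and the control library, a gene was counted as higher or lower when its fold in CPM was at least 2 and the exact 95% interval of the ratio excluded 1. These intervals are Clopper-Pearson intervals and cover counting error only. All 5 comparisons share the control library. C1 larvae had 5 of the 21 measured members higher and 3 lower, or 23.8% and 14.3%, where 5.12% and 18.0% of all 11602 measured genes were higher and lower. C2 larvae had 2 higher and 5 lower, or 9.52% and 23.8%, against 8.96% and 20.0% of all genes. Under plain CPM without TMM, C2 had 1 higher and 7 lower. The median log2 ratio of all genes in C2 was then -0.32, against -0.03 with TMM. C3 larvae had 2 higher and 7 lower, or 9.52% and 33.3%, against 6.02% and 21.8% of all genes. C4 larvae had 2 higher and 6 lower, or 9.52% and 28.6%, against 9.02% and 3.15% of all genes. C5 larvae had 2 higher and 5 lower, or 9.52% and 23.8%, against 4.86% and 18.6% of all genes. Under plain CPM, C5 had 1 higher and 6 lower. The median log2 ratio of all genes in C5 was then -0.24, against 0.03 with TMM. The shares of all genes given here hold with TMM only.

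The background of lower genes depended on the filter, which keeps genes that are high in control or C4 alone, male germline genes among them. With the mean taken over C1, C2, C3 and C5 instead, an alternative chosen after seeing the data, 19 members and 9990 genes remained. C1 larvae then had 5 members higher and 2 lower (26.3% and 10.5%, against 6.26% and 4.56% of all genes). C2 larvae had 2 higher and 4 lower (10.5% and 21.1%, against 10.7% and 6.93% of all genes). C3 larvae had 2 higher and 5 lower (10.5% and 26.3%, against 7.19% and 9.08% of all genes). C4 larvae had 2 higher and 4 lower (10.5% and 21.1%, against 3.96% and 3.63% of all genes). C5 larvae had 2 higher and 3 lower (10.5% and 15.8%, against 5.89% and 5.26% of all genes). In C1, C2, C3 and C5, the share of lower members was thus nearer to the background under the first filter than under the second. In C4 it was nearer under the second.

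Median log2 ratios over the 21 members were 0.31 for C1 and 0.37 for C5, and -0.28, -0.53 and -0.26 for C2, C3 and C4. The medians over all 11602 genes were 0.05 for C1 and 0.03 for C5, and -0.03, -0.01 and 0.06 for C2, C3 and C4. In at least 1 comparison, 16 of the 21 members (76.2%) passed the rule, against 38.1% of all genes. Both directions occurred for 2 members, or 9.52% against 10.5% of all genes. The 5 members that never passed were Ugt36D1, Ugt316A1, Ugt302C1, Ugt303B3 and Ugt36A1. Ugt303B3 had 3.11 CPM in C1, 2.38 CPM in C2, 0.961 CPM in C3, 2.78 CPM in C4 and 2.44 CPM in C5 larvae, against 1.76 CPM in control larvae. Its log2 ratio in C3 was -0.87, and under plain CPM it passed the fold of 2 there (-1.004). Ugt36A1 overlaps CG15418 on the opposite strand by 464 bases. Whether counting used the strand is not given in the sources used here, so reads of such overlaps may have been split between the genes.

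**Figure D2:**
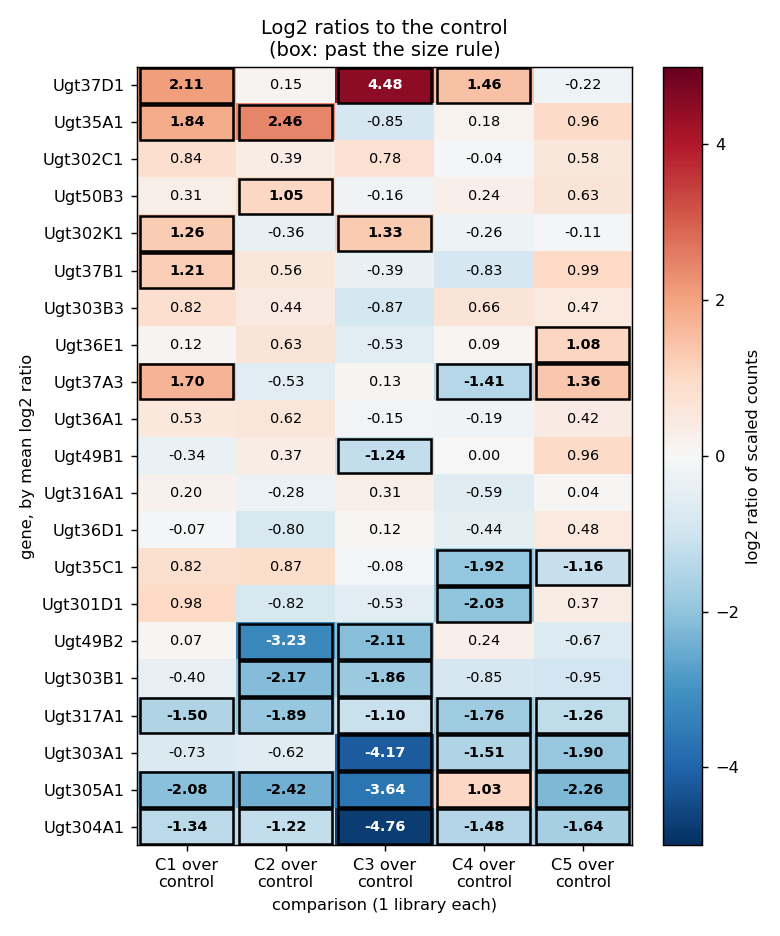
Log2 ratio of each transgenic library over the control library for the 21 measured Ugt genes (rows) in C1 to C5 (columns), as colour; boxes mark ratios of at least 2-fold whose counting interval excludes 1. Ugt317A1 and Ugt304A1 are boxed as lower in all 5 columns.

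A pair of members was lower in every transgenic library: Ugt317A1 and Ugt304A1. Among all measured genes, 20 (0.172%) were lower in all 5, and 51 (0.440%) were higher in all 5, none of them a Ugt gene. Ugt304A1 reached the filter through the control library, since its 5 transgenic values averaged 0.987 CPM, and its place among these 20 genes rests on that filter. With the mean taken over C1, C2, C3 and C5, Ugt317A1 was 1 of 16 genes of 9990 (0.160%) lower in all 5, and neither Ugt304A1 nor Ugt303A1 was kept. Ugt317A1 (earlier Ugt58Fa; 2R, 22641786 to 22643917, minus strand) had 10.05 CPM in C1, 7.66 CPM in C2, 13.3 CPM in C3, 8.40 CPM in C4 and 11.9 CPM in C5 larvae, against 28.5 CPM in control larvae. Every transgenic value lay below that of the control, with folds between 2.15 (C3) and 3.72 (C2). C4, the other library with male germline RNA, was 3.39-fold below control, and the part of male germline RNA in the result was not tested.

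The lower counts of Ugt317A1 lay mostly in its shorter transcript. This gene has a pair of annotated transcripts with the same coding region, which differ in where the last exon ends. The transcript with the shorter 3' end (1742 bases) had 8.59 CPM in C1, 5.59 CPM in C2, 9.06 CPM in C3, 6.12 CPM in C4 and 10.2 CPM in C5 larvae, against 26.1 CPM in control larvae. The longer one (1864 bases) carries 122 further bases of 3' UTR (22641786 to 22641907) and had between 1.46 CPM (C1) and 4.20 CPM (C3) in transgenic larvae, against 2.33 CPM in control larvae. Its log2 ratios ran from -0.68 in C1 to 0.85 in C3, those of the shorter one from -2.22 in C2 to -1.35 in C5. Reads shared by such overlapping transcripts were divided between them by the authors' software, and the split is an estimate.

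Ugt304A1 (3R, 11173441 to 11175408, minus strand) had 1.27 CPM in C1, 1.38 CPM in C2, 0.118 CPM in C3, 1.15 CPM in C4 and 1.03 CPM in C5 larvae, against 3.20 CPM in control larvae. C3 stood lowest, at 9 counts and 27.0-fold under control (log2 ratio -4.76, interval -5.90 to -3.81). In the other transgenic libraries the difference was between 2.33-fold (C2) and 3.12-fold (C5). Its neighbour Ugt303A1 (3R, 11175529 to 11177910, plus strand) starts 120 bases away in the opposite direction. Ugt303A1 had 1.29 CPM in C1, 1.39 CPM in C2, 0.118 CPM in C3, 0.750 CPM in C4 and 0.573 CPM in C5 larvae, against 2.14 CPM in control larvae. It too was lowest in C3, at 9 counts and 18.05-fold under control, and passed the rule in C4 (2.85-fold) and C5 (3.73-fold). Like Ugt304A1, Ugt303A1 reached the filter through the control library, since its 5 transgenic values averaged 0.825 CPM. Its place among the lower members rests on that filter. In C1 and C2 its log2 ratios of -0.73 and -0.62 did not reach the fold of 2. Both genes belong to the group of 9 on 3R.

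No other measured gene of that group was lower than control by the rule. Ugt35A1 (earlier Ugt35a; 11170817 to 11172664, minus strand), the next gene beside Ugt304A1, had 4.52 CPM in C1, 6.93 CPM in C2, 0.698 CPM in C3, 1.43 CPM in C4 and 2.45 CPM in C5 larvae, against 1.26 CPM in control larvae. It was 3.59-fold higher in C1 and 5.50-fold higher in C2, and passed in no other strain. Its lowest level was also in C3. Ugt302K1 had 14.0 CPM in C1, 4.56 CPM in C2, 14.7 CPM in C3, 4.92 CPM in C4 and 5.44 CPM in C5 larvae, against 5.87 CPM in control larvae. It was 2.39-fold higher in C1 (log2 ratio 0.99 in RPKM, just under the rule) and 2.51-fold higher in C3. Ugt302C1 lay between 8.46 CPM (C4) and 15.5 CPM (C1) in transgenic larvae, against 8.70 CPM in control larvae, and passed nowhere. Thus C3 held the lowest levels of Ugt304A1, Ugt303A1 and Ugt35A1 and the highest level of Ugt302K1.

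**Figure D3:**
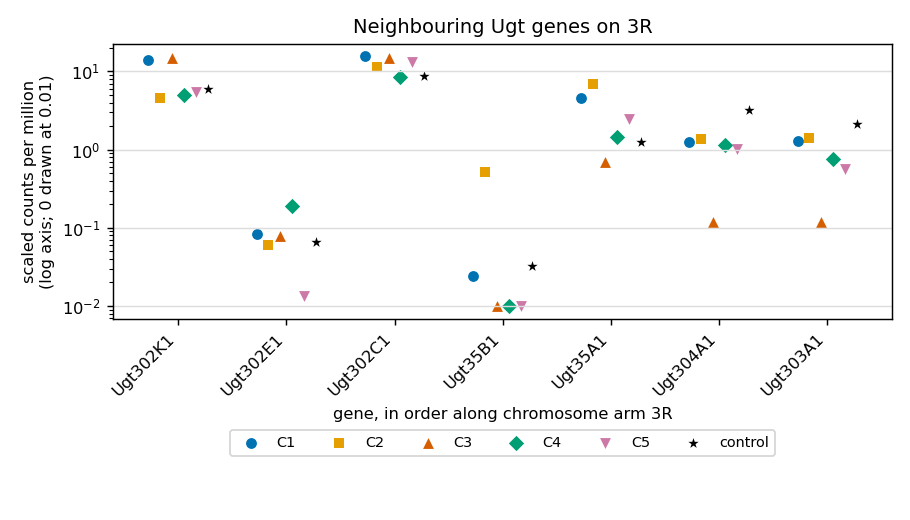
Level in CPM (log axis) of the 7 members of the 3R group that had rows in the tables, in each library; values of 0 are drawn at the low end of the axis. Ugt304A1 and Ugt303A1 drop to 0.118 CPM in C3, where Ugt302K1 reaches 14.7 CPM.

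Ugt305A1 was highest in the libraries with male germline RNA. This gene (3L, 4059770 to 4061923, plus strand) also bears the name Tes36 in the annotation. It had 5.78 CPM in C1, 4.56 CPM in C2, 1.96 CPM in C3, 49.9 CPM in C4 and 5.08 CPM in C5 larvae, against 24.4 CPM in control larvae. It was 2.05-fold higher in C4 (log2 ratio 1.03, interval 0.96 to 1.11), and lower by 4.22-fold in C1, 5.34-fold in C2, 12.4-fold in C3 and 4.80-fold in C5. The male germline markers summed to 3279 CPM in C4 and 1548 CPM in control larvae and to at most 19.7 CPM in the 4 other libraries, and their part in the result was not tested.

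The transcript with the long first exon accounted for the difference. It has 1976 bases and starts 133 bases upstream of the shorter transcript (1843 bases), with the same coding region and the same later exons, so they differ in the 5' UTR only (4059770 to 4059902). The long transcript had 0.184 CPM in C1, 0.593 CPM in C2, 0.0619 CPM in C3, 44.4 CPM in C4 and 0.361 CPM in C5 larvae, against 21.4 CPM in control larvae. The short one had 5.60 CPM in C1, 3.97 CPM in C2, 1.90 CPM in C3, 5.46 CPM in C4 and 4.72 CPM in C5 larvae, against 3.00 CPM in control larvae. The long form was 89.1% of the gene's counts in C4 and 87.7% in control, and between 3.15% (C3) and 13.0% (C2) in the 4 libraries with few male germline transcripts. For the short form the log2 ratios ran from -0.66 (C3) to 0.90 (C1), and C4 (0.87) lay within that range.

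**Figure D4:**
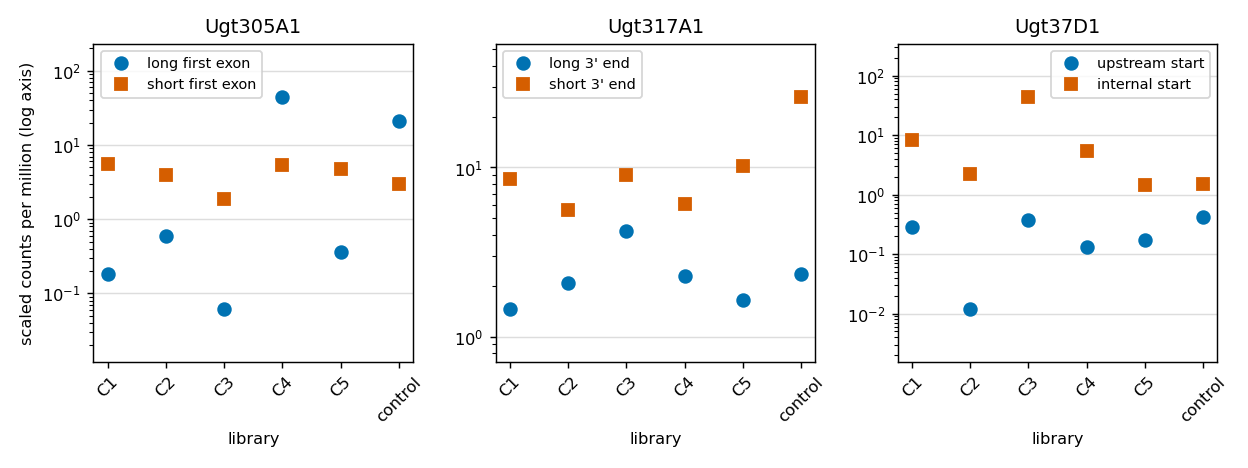
Level in CPM of the annotated transcripts of Ugt305A1, Ugt317A1 and Ugt37D1 in each library; another, scarce transcript of Ugt37D1 is not drawn. The long-first-exon transcript of Ugt305A1 reaches 44.4 CPM in C4 and 21.4 CPM in control, and stays under 1 CPM in the other libraries.

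Ugt37D1 was highest in C3. This gene (earlier Ugt36Bc; 2L, 16799025 to 16801584, plus strand) had 8.57 CPM in C1, 2.20 CPM in C2, 44.4 CPM in C3, 5.48 CPM in C4 and 1.71 CPM in C5 larvae, against 1.99 CPM in control larvae. C3 was 22.3-fold above control (log2 ratio 4.48, interval 4.27 to 4.70), C1 4.31-fold and C4 2.76-fold. C2 and C5 lay within 0.22 of control on the log2 scale, and their intervals included 0. The increase was in the transcript that starts at the internal site (16799768; 1738 bases), which had 43.9 CPM in C3 larvae against 1.53 CPM in control larvae. The transcript from the upstream start (16799025; 1934 bases) had 0.367 CPM in C3 larvae against 0.425 CPM in control larvae. The coding region is the same in both. Its neighbours Ugt37E1 and Ugt37C2, on the same strand, were both under 1 CPM, with 1 and 5 counts in C3 larvae against 1 and 6 counts in control larvae.

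Ugt37A3 and Ugt301D1 were highest in C1 and C5 and lowest in C4. Ugt37A3 had 200.5 CPM in C1, 42.7 CPM in C2, 67.4 CPM in C3, 23.2 CPM in C4 and 158 CPM in C5 larvae, against 61.7 CPM in control larvae. It was 3.25-fold higher in C1 and 2.56-fold higher in C5, and 2.66-fold lower in C4. Ugt301D1 had 476 CPM in C1, 137 CPM in C2, 167 CPM in C3, 59.1 CPM in C4 and 311 CPM in C5 larvae, against 241 CPM in control larvae. Only C4, 4.08-fold lower, passed the rule for Ugt301D1, and C1 fell just short of it (log2 ratio 0.98). Ugt301D1 in C2 passed the fold of 2 under plain CPM (log2 ratio -1.12) and in RPKM (-1.13). The midgut marker sum was also highest in C1 and C5 (2006 and 1549 CPM) and lowest in C4 (526.3 CPM), against 617.1 CPM in control larvae. Of the 7 measured markers, 5, 4 and 1 were higher in C1, C5 and C4, and 0, 0 and 2 were lower. In C2 and C3 the midgut sum, 1280 and 911.7 CPM, was also above control, while Ugt301D1 lay below control there (log2 ratios -0.82 and -0.53), as did Ugt37A3 in C2 (-0.53). The midgut's part in these results was not tested.

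The highest member, Ugt36D1, moved less. It had 287 CPM in C1, 172 CPM in C2, 327 CPM in C3, 221 CPM in C4 and 421 CPM in C5 larvae, against 301 CPM in control larvae, and its log2 ratios lay between -0.80 (C2) and 0.48 (C5). Ugt316A1 had 72.5 CPM in C1, 51.9 CPM in C2, 77.8 CPM in C3, 41.7 CPM in C4 and 64.8 CPM in C5 larvae, against 63.0 CPM in control larvae, with log2 ratios between -0.59 (C4) and 0.31 (C3). Ugt316A1 stayed under the fold of 2 in all 5 strains under each scaling. Ugt36D1 in C2 passed it under plain CPM (log2 ratio -1.10) and in RPKM (-1.12).

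Ugt49B2 and Ugt303B1 were lower in C2 and C3. Ugt49B2 (3R, 21397781 to 21399742, minus strand) had 2.21 CPM in C1, 0.224 CPM in C2, 0.487 CPM in C3, 2.48 CPM in C4 and 1.32 CPM in C5 larvae, against 2.11 CPM in control larvae. C2 was 9.38-fold below control (log2 ratio -3.23, interval -4.10 to -2.47) and C3 4.32-fold. Ugt303B1 (3R, 23534900 to 23536710, minus strand) had 2.49 CPM in C1, 0.733 CPM in C2, 0.908 CPM in C3, 1.83 CPM in C4 and 1.71 CPM in C5 larvae, against 3.30 CPM in control larvae. It was lower by 4.50-fold in C2 and 3.63-fold in C3. In C5 it passed the fold of 2 under plain CPM (log2 ratio -1.23) and in RPKM (-1.13) only.

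Among the remaining members the folds were smaller. Ugt35C1 (earlier Ugt86Dd; 3R, 11126597 to 11128328, minus strand), known in flies for variation in nicotine resistance, was 3.79-fold lower in C4 and 2.24-fold lower in C5. Its levels were 1.89 CPM in C1, 1.96 CPM in C2, 1.01 CPM in C3, 0.284 CPM in C4 and 0.480 CPM in C5 larvae, against 1.07 CPM in control larvae. Ugt37B1 was 2.32-fold higher in C1, Ugt50B3 2.07-fold higher in C2, Ugt36E1 2.12-fold higher in C5 and Ugt49B1 2.36-fold lower in C3, each in that strain alone. Under plain CPM the log2 ratio was 0.75 for Ugt50B3 in C2 and 0.81 for Ugt36E1 in C5, and in RPKM it was 0.94 for Ugt37B1 in C1, all below the fold of 2. Ugt50B3 contains the gene TpnC4, and Ugt36E1 and Ugt49B1 overlap a gene on the opposite strand by 48 and 90 bases.

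Tests across libraries used edgeR's quasi-likelihood fit over all 11602 genes, with spread estimated between genotypes, first for the 5 transgenic libraries against control. This asks which members differ from control, on average over the 5 strains, by more than the strains differ among themselves. A difference in every strain is not required. No gene passed an adjusted p of 0.05 (Benjamini-Hochberg; 0% in either direction), and 119 genes had an unadjusted p under 0.05, of which 1 was a Ugt gene. DESeq2 called 40 genes higher and 19 lower (0.164% lower), 1 of them a Ugt gene, and gave no adjusted p for Ugt305A1. The member in both tools was Ugt317A1, with a log2 fold change of -1.47 ± 0.32 (SE), lower in 5 of 5 libraries. Its unadjusted p was 0.00525 and its edgeR adjusted p = 0.994. Over its 8 alternatives the adjusted p ran from 0.00722 (DESeq2) to 1.00. Without C4, edgeR called 2 members lower, Ugt317A1 (adjusted p = 0.0422) and Ugt305A1 (adjusted p = 0.0425), among 41 genes higher and 1606 lower (14.3% of 11199 genes lower). The 4 transgenic libraries that remained in that fit are those with little male germline RNA, set against a control that had it.

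Each transgenic library was also tested against the other 5 libraries. edgeR called no gene in any of these 5 tests (0% in either direction), and unadjusted p was under 0.05 for 37 and 43 genes (C1 and C5) and for 671, 783 and 1218 genes (C2, C3 and C4). Among members, that held for none in C1, C2 and C5, for 5 in C3 and for 2 in C4. In C3 these were Ugt37D1 (log2 fold change 3.48 ± 0.86 SE, edgeR adjusted p = 0.639), Ugt304A1 (-3.74 ± 1.08 SE, adjusted p = 0.688), Ugt303A1 (-3.36 ± 1.11 SE, adjusted p = 0.701), Ugt303B3 and Ugt49B1. DESeq2, used as an alternative, called the same 5 in C3 among 412 genes higher and 974 lower (3.55% and 8.40%), with adjusted p = 0.00654 for Ugt37D1, 0.000964 for Ugt304A1 and 0.00562 for Ugt303A1. In C4 the 2 members were Ugt301D1 (-2.17 ± 0.84 SE, edgeR adjusted p = 0.463) and Ugt316A1 (-0.66 ± 0.24 SE, edgeR adjusted p = 0.463), and DESeq2 called Ugt301D1 (adjusted p = 0.0391) among 357 genes lower (3.08%) and 362 higher. DESeq2 also called Ugt49B2 in C2, among 820 genes lower (7.07%) and 394 higher, and no member in C1 or C5, where it called 6 and 18 genes higher and 522 and 474 lower (C1 and C5). Without control, edgeR called Ugt305A1 higher in C4 (log2 fold change 3.52, adjusted p = 0.0103), among 2215 genes higher (19.2% of 11518) and 222 lower. In that fit C4 was the only library with male germline markers at a high level, 3279 CPM against at most 19.7 CPM. DESeq2 gave no p-value for Ugt37D1 in the test of C1, so that member was not tested there.

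Genes that supply the sugar donor were compared by the same rule. In C2, 8.96% of all 11602 measured genes were higher and 20.0% lower. Of 5 measured genes of UDP-sugar supply, 3 were higher and 1 lower in C2, and none passed in C1, C4 or C5. Pgm1, which makes glucose 1-phosphate, had 318 CPM in C2 larvae against 119 CPM in control larvae. Galt, of the galactose pathway, had 47.5 CPM in C2 larvae against 20.9 CPM in control larvae. UGP, which makes UDP-glucose, had 89.2 CPM in C2 larvae against 44.0 CPM in control larvae, while sgl, which converts UDP-glucose to UDP-glucuronate, had 40.3 CPM in C2 larvae against 83.8 CPM in control larvae. The measured UDP-sugar transporters, frc and Efr, passed in none of the 5 strains.

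No measured gene among the 7 xenobiotic response regulators passed in any of the 5 strains. They include cnc, the fly counterpart of mammalian Nrf2, which had 347 CPM in C1, 286 CPM in C2, 241 CPM in C3, 215 CPM in C4 and 303 CPM in C5 larvae, against 213 CPM in control larvae. Among all 11602 measured genes, 5.12%, 8.96%, 6.02%, 9.02% and 4.86% were higher in C1 to C5. In C3 and C4, 21.8% and 3.15% of them were lower. Of 13 listed glutathione S-transferases, 7 were higher in C2, 2 in C1 and 1 each in the other strains, and 2 were lower, both in C3. GstE3 was 7.07-fold and GstE7 6.33-fold higher in C2. Of 10 measured genes of the detoxification P450 list, which includes the reductase Cpr, 6 were higher in C2, 3 each in C1 and C5, and 2 each in C3 and C4, while 3 were lower in C3 and 2 in C4. In C2 the highest folds among them were those of Cyp6a8 (6.97-fold) and Cyp28a5 (6.95-fold).

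Of 3 measured sulfotransferases, 1 was higher in each strain but C5, where none passed. Again 5.12%, 8.96%, 6.02%, 9.02% and 4.86% of all 11602 measured genes were higher in C1 to C5, and 21.8% were lower in C3. St2 had 35.6 CPM in C3 larvae against 9.53 CPM in control larvae. Of 5 ABC exporters, which pump conjugates and drugs out of cells, 1 was higher in C1 and 2 in C3, 1 was lower in C3, and none passed in C2, C4 or C5. Mdr49 had 278 CPM in C3 larvae against 38.3 CPM in control larvae.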

How the data were processed

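Stranded total RNA, depleted of ribosomal RNA, was sequenced in pairs from 6 libraries, 1 per genotype, per the labels' protocols. Tools listed in the submitters' processing notes are TopHat, Partek and bcl2fastq, with dm6 as the build and no roles or versions. The authors deposited, per the file headers, an estimated count (expected count) and an RPKM for each of 34966 RefSeq transcripts, with between 29.4% and 32.6% of counts whole (within 1e-06). Library totals ran from 75131812 to 86975388. The strand setting of counting is not given in the sources used here.

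Transcripts were matched by RefSeq accession (34780, 99.5%), and counts were summed per gene, giving 16196 genes. Unmatched transcripts held at most 0.1304% of a library's counts. Transcript ends and lengths came from the Ensembl annotation of Release 6. CPM used edgeR 4.0.16 TMM factors (0.890 to 1.19) in R 4.3.3. Counts under 3 were raised to a floor of 3 counts per library, or 0.0304 to 0.0449 CPM, when a fold was computed. Ratios had exact 95% Clopper-Pearson intervals. For the tests, counts were rounded to whole numbers. edgeR's quasi-likelihood test had 4 residual degrees of freedom, with spread estimated between genotypes, so its p-values measure differences between strains and not between replicates. Both it and the size rule were run on simulated data, with counting error alone for the size rule and a fixed spread (dispersion 0.05) for edgeR. That spread was not estimated from these libraries, so the runs do not show how either performs here. DESeq2 1.42.0, other scalings, other filters, RPKM ratios and left-out libraries were alternatives.

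Values in every library are given for members with a fold of at least 4 in some comparison, the 5 highest per length, those called by a test and those passing in 1 direction in all 5 comparisons; others were added after their values were seen. The members, pathway lists and marker lists were chosen with earlier results of these data known. From a pathway list, up to 3 genes of largest change are named, with others added after their values were seen. A result for 1 listed gene is not reported here.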

Additional observations from a re-analysis of the deposited data

Results flagged for a closer look

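Ugt305A1 and Ugt37A3 passed the 2-fold rule in opposite directions in different strains. The log2 ratio of Ugt305A1 to control was 1.03 in C4, and was -2.08, -2.42, -3.64 and -2.26 in C1, C2, C3 and C5. The log2 ratio of Ugt37A3 to control was 1.70 in C1, -1.41 in C4 and 1.36 in C5. The opposite directions relative to control were not themselves tested. In the test of C4 against the other 5 libraries, edgeR gave log2 fold changes of 2.58 for Ugt305A1 (adjusted p = 0.473, 0.0103 to 0.743 over 8 alternatives, lowest without control) and -2.19 for Ugt37A3 (adjusted p = 0.494, 0.103 to 0.743 over 8 alternatives).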

How the results depend on the processing

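No paired analysis was possible because each genotype had 1 library, so the groups shared fewer than 2 replicate numbers. Depth limits the low members: at 9 counts the interval of a ratio spans more than 2 log2 units. Without a filter on level (33 members), the rule gave 5 lower in C1 and 8, 4, 6 and 4 higher in C2, C3, C4 and C5, where 3259 and 1514, 1051, 1744 and 816 of 15902 genes did. With a mean of at least 5 CPM (13 members) it gave 3 higher in C1, 1 higher and 2 lower in C2, and 3, 3 and 2 lower in C3, C4 and C5, where 4.33%, 7.93% and 14.5%, and 15.8%, 3.03% and 12.9% of 9364 genes did. Ratios of RPKM with a pseudocount of 0.1 gave 3 higher in C1, where 404 of 11602 genes were higher, and 1 higher in C2 and in C5. The shares of all genes in C2 and C5 under RPKM and plain CPM are not given here. Plain CPM, under which the median log2 ratio of all genes was -0.15, -0.32, -0.15, 0.18 and -0.24 in C1 to C5, gave 1 higher in C2 and in C5. A filter on C1, C2, C3 and C5 alone (19 members), chosen after seeing the data, gave 3 lower in C5 (5.26% of 9990 genes), with Ugt304A1 and Ugt303A1 no longer tested. All other counts of members past the rule stayed within 1.5 times. Of 315 ratios of members recomputed, 109 left their counting interval and no called one changed sign. Log2 ratios moved by at most 0.0535 under DESeq2 size factors, 0.298 under plain CPM and 1.19 in RPKM. Called ratios are at least 2-fold, so under DESeq2 size factors and plain CPM a change of sign was not possible. The cause of these shifts was not tested, other than the smaller or larger number of members under the filters.

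In the tests across libraries, where edgeR called 0 members, DESeq2 called 1 lower for the 5 transgenic libraries against control, 1 lower in C2, 1 higher and 4 lower in C3 and 1 lower in C4, where it called 0.164%, 7.07%, 3.55%, 8.40% and 3.08% of all genes. Leaving out 1 library at a time gave 0 to 2 members lower for the transgenic libraries against control, with 2 only when C4 was left out, and 0 to 1 higher in C4, with 1 only when control was left out.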

Other observations

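The 12 members under 1 CPM on average are given as counts, named after their values were seen. Ugt36F1 had 28, 10, 41, 158 and 20 counts in C1 to C5 larvae, against 95 in control larvae. Ugt303B2 had 28, 26, 11, 139 and 13 counts in C1 to C5 larvae, against 72 in control larvae. Both were highest in C4 and next highest in control, the libraries with male germline markers at 3279 and 1548 CPM, whose part in the result was not tested. Ugt35D1, with 22, 24, 5, 93 and 19 counts in C1 to C5 larvae against 14 in control larvae, was high in C4 only.

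Ugt49C1, which lies 462 bases from Ugt49B1 on the same strand, had 28, 35, 15, 26 and 25 counts in C1 to C5 larvae, against 5 in control larvae. Its CPM was higher in all 5 strains, by 3.64-fold in C3 to 9.65-fold in C2. Ugt49B1, far more abundant, had 8.29 CPM in C1, 13.6 CPM in C2, 4.45 CPM in C3, 10.5 CPM in C4 and 20.4 CPM in C5 larvae, against 10.5 CPM in control larvae. Ugt37C2 had 28, 39, 5, 18 and 6 counts in C1 to C5 larvae, against 6 in control larvae. Ugt35B1, known for its RNA in olfactory organs, had 35 counts in C2 and at most 2 in the other transgenic larvae, against 3 in control larvae. The 6 other members (Ugt37C1, Ugt302E1, Ugt307A1, Ugt37A1, Ugt37A2 and Ugt37E1) had at most 19 counts in any library.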
